A study of Mus musculus with 36 samples.

Results

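The comparison set wild-type mouse embryonic fibroblasts (WT MEFs) at day 0 against the same line at day -2 of an adipogenic protocol, the 2 days before the differentiation cocktail. It used the 6 wild-type libraries labelled RepA to RepC at day -2 and at day 0, chosen by their column names, out of 36 libraries in the series. By the differentiation protocol, cells were grown to confluence at day -2 in medium with foetal bovine serum. At day 0, 2 days later, differentiation was started with rosiglitazone, IBMX, dexamethasone, insulin, D-pantothenic acid and biotin. The imaging methods of the study describe day -2 MEFs as below full confluence, and its RNA-seq methods give no density. The study calls day 0 the start of differentiation and does not say in words that RNA was taken before the cocktail touched the cells. Mfn1-/- MEFs at day -2 and day 0 (6 libraries, 3 a day, same protocol) served to test whether the response of WT cells differed from that of another line. Each genotype is 1 line of MEFs from a cell repository, so its 3 replicates, described as independent biological replicates, are repeats of 1 line and not separate embryos. The RNA was sequenced in bulk, so fewer cells of a kind and less RNA per cell cannot be told apart. The deposited scaling was set separately for each day, so day and scaling cannot be told apart on that scale, and the values here were rescaled together.

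Fibroblasts that touch on all sides slow their division, a state called contact inhibition, in which mitotic genes, ribosome production and YAP signalling are known to fall and matrix and lysosomal genes to rise. Adipogenic protocols commonly let cells reach this state before hormones are added. Interferon-stimulated genes are a separate programme: type I interferon binds its receptor, signalling factors enter the nucleus, bind the interferon-stimulated response element (ISRE) and switch on antiviral and antigen presentation genes.

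Total reads ran from 14256017 to 37011894 in the 6 libraries (8800674 to 37011894 in all 36). Values are given as normalized counts, which are recovered reads divided by the TMM-scaled library size and brought to a common size over the 36 libraries. One library of each day stood nearer to the other day. On the first principal component, which held 58.4% of the variance of the 6 libraries, day -2 C stood at -9.38 against -44.26 and -50.62 for day -2 A and B, and day 0 A, B and C stood at 28.82, 39.03 and 36.42. Day -2 C was also the deepest library, and the part of depth in its position was not tested. Counts that rest on these libraries are given below without day -2 C and day 0 A. Of 13 tested fibroblast markers, Vim, a filament protein, stood at 39421 to 60393 in the 6 libraries and Col1a1, a chain of type I collagen, at 121560 to 164060. Marker genes summed over each list stood at 134 to 196 normalized counts at day -2 and 174 to 287 at day 0 for endothelial cells, at 145 to 174 and 125 to 135 for macrophages and blood, and at 12.5 to 26.9 and 27.9 to 28.9 for skeletal muscle. Higher sums were found for neural and glial markers (4259 to 6076, then 3553 to 4297), cartilage and bone (3085 to 5285, then 2711 to 3683) and epithelium and mesothelium (2690 to 4370, then 2481 to 3186). In each of these 3 lists day -2 A and B were the highest libraries, no member passed the test, and their part in the results was not tested. Adipocyte markers summed to 357 to 550 at day -2 and to 779 to 930 at day 0. Mfn1 was at 1019 ± 55.5 (mean ± SD, n = 3) in WT and 239 ± 30 in Mfn1-/- MEFs at day 0.

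Over 14298 genes tested with limma, 319 rose and 83 fell between day -2 and day 0 at an adjusted p under 0.01, which is 2.81% of the genes (2.23% rose, 0.581% fell). The rises were the larger changes, with a median log2 fold change of 1.78 against -0.64 among the falls, while the median over all genes was -0.01. In 260 rises and 11 falls the change was over 2-fold. Groups did not overlap in 392 of the 402 genes called, while among all genes 17.9% were higher and 21.3% lower without overlap. The calls and the overlap rest on the same 6 libraries, so the overlap is not separate support. The count moved with single libraries, to 627 without day -2 C, 120 without day -2 B and 512 without day -2 C and day 0 A together. On the scale the authors deposited, which was set day by day and puts the median log2 fold change of all genes at 0.29, 1686 genes rose and 8 fell, or 99.5% rises against 79.4% after rescaling. Of the genes named here, 12 kept their call under every one of the 20 alternatives that tested them: Abca1, Bmp6, Cd151, Cp, Fbln1, H2-D1, H2-K1, Lama4, Mmp2, Psmb8, Rbmx and Spry1.

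**Figure D1:**
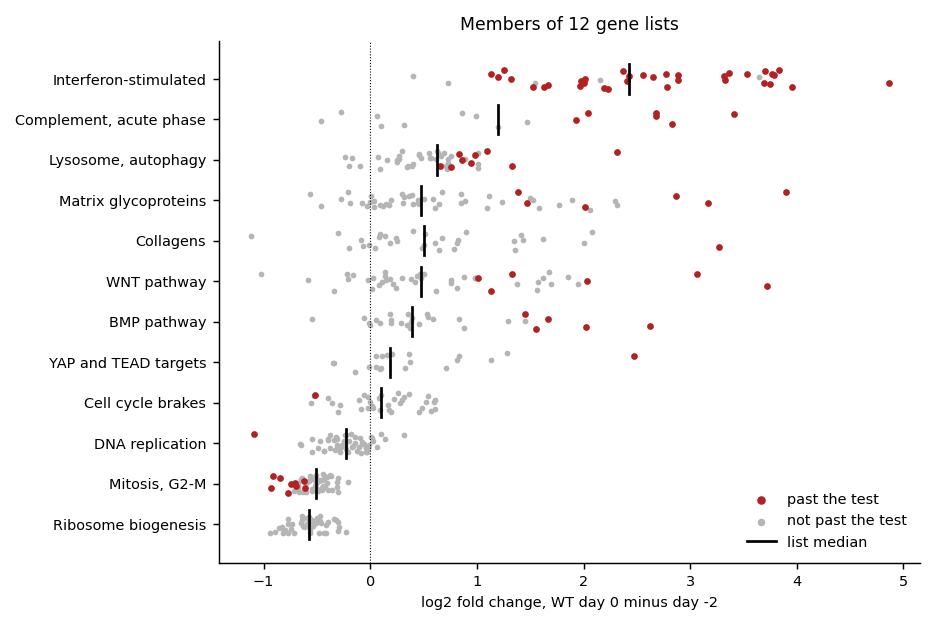
Log2 fold change of WT day 0 minus day -2 for each tested member of 12 gene lists (x axis), with members past the test in red, the others in grey and a black line at each list's median. The interferon-stimulated genes sit furthest to the right with a median of 2.43, and the mitosis and ribosome biogenesis lists lie wholly below 0.

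Interferon-stimulated genes rose more often than those of any other list drawn up here. Of 48 members 39 were tested, being among the deposited genes and past the filter on low values, which looks at all 36 libraries. Of these 39, 34 rose and the other 5, Oas3, Oasl1, Isg20, Tapbp and Irf1, did not pass (adjusted p 0.0105 to 0.043), beside 2.23% of all genes. The median log2 fold change of the list was 2.43, and day 0 lay above day -2 without overlap in 35 of 39 members, against 17.9% of all genes. The count was 36 without day -2 C and day 0 A, and 23 to 36 as each WT library was left out. In a limma fit of only these 6 libraries, where the spread among them alone sets the error, 5 members passed, and DESeq2 on the same 6 called 24. Over all genes these fits called 279 and 978 rises.

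Isg15, a ubiquitin-like protein that is attached to other proteins in infected cells (ENSMUSG00000035692, GRCm38 chromosome 4, 156199424 to 156200818), stood at 125, 158 and 903 normalized counts in day -2 A, B and C and at 1609, 6223 and 5225 at day 0 (log2 fold change 3.83, SE 0.56, adjusted p = 8.89e-05). Ifit3b, of a family that binds foreign RNA, went from 23.9, 12.5 and 286 to 471, 2372 and 2110 (4.86, SE 0.83, adjusted p = 0.000406). Rsad2, the radical enzyme viperin, went from 14.9, 6.26 and 68.3 to 148, 565 and 355 (3.96, SE 0.75, adjusted p = 0.00107). In each of these 3 genes day -2 C was the highest library of its day, day 0 A the lowest of its own, and the groups did not overlap. Their SE and adjusted p rest on the spread over all 36 libraries and not on these 6 alone. None of the 3 kept its call under every alternative. Bst2, the tether that holds budding virus at the membrane, rose from 237, 248 and 1413 to 2601, 9828 and 8038. Oasl2, an oligoadenylate synthetase-like protein, rose from 179, 153 and 1318 to 1748, 8633 and 6118, and Mx1, a GTPase that traps viral particles, from 13.9, 14.6 and 70.7 to 128, 562 and 500. These rises were 13.5-fold, 13.6-fold and 12.9-fold, with the same order of libraries.

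Members that act in interferon and chemokine signalling rose as well. Irf7, the factor that amplifies interferon production, stood at 48.8, 54.2 and 428 at day -2 and at 600, 2306 and 2248 at day 0 (log2 fold change 3.79, SE 0.73, adjusted p = 0.00138). Exons of Irf7 overlap those of Phrf1 on the other strand, and without knowledge of strand in the counting their reads cannot be told apart. Cxcl10, a chemokine for T cells, rose from 122, 168 and 299 to 816, 1546 and 1228 (2.65, SE 0.41, adjusted p = 0.000115). Irf1, a factor that both type I and type II interferon induce, moved less, from 1666, 1743 and 1520 to 2227, 2278 and 2003 (0.40, SE 0.12, adjusted p = 0.0373). Outside the list, Trim30a and Phf11d, known as interferon-induced genes of mouse, were among the 10 largest rises with log2 fold changes of 3.92 and 4.75.

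Antigen presentation genes rose too. H2-K1, a class I heavy chain that shows peptides to T cells, stood at 956, 758 and 787 at day -2 and at 2837, 3989 and 3326 at day 0, a 4.04-fold rise (log2 fold change 2.01, SE 0.19, adjusted p = 5.04e-08). H2-D1, another heavy chain, stood at 1676, 1590 and 1855 and then at 4845, 8247 and 7587 (1.98, SE 0.17, adjusted p = 7.48e-09). For these genes day -2 C lay close to A and B, unlike for Isg15. Class I genes are near copies of each other, so the split of reads between them is uncertain. B2m, the light chain of the same complex, rose 2.88-fold from 4602, 4784 and 8234 to 11587, 19015 and 19582. Psmb8, a subunit of the immunoproteasome that cuts the peptides, rose 7.41-fold from 42.8, 42.8 and 61 to 248, 494 and 391. Tap1, a subunit of the transporter that carries them into the endoplasmic reticulum, rose 5.39-fold from 189, 151 and 329 to 621, 1564 and 1536, and its exons overlap those of Psmb9 on the other strand.

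**Figure D2:**
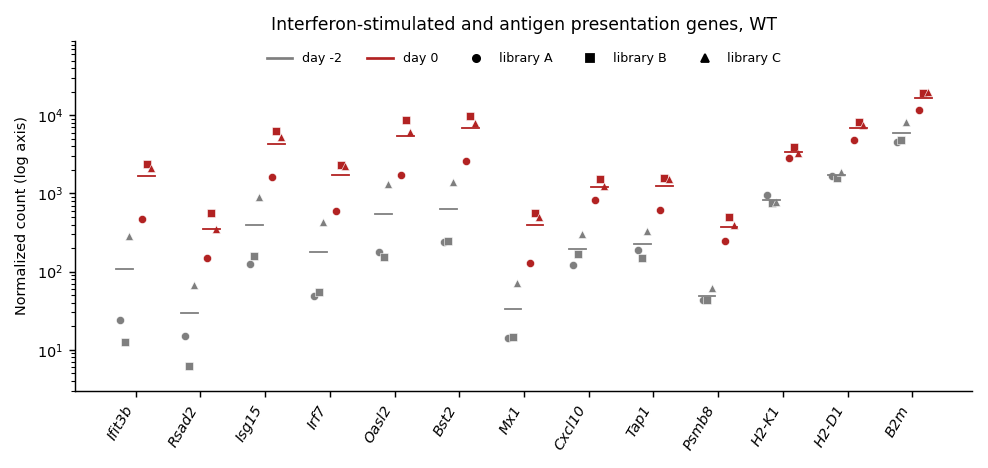
Normalized counts (log axis) of 13 interferon-stimulated and antigen presentation genes in WT, with day -2 in grey, day 0 in red, a symbol for each library and a line at the mean of 3. In all 13 genes each day 0 library lies above each day -2 library, and day -2 C lies above A and B in each of them except H2-K1, where A was highest at 956.

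The promoters of 3 of these genes are printed because they hold the letters to which the interferon-activated factors bind. They are the bases before the RefSeq start on the GRCm38.p6 build, on the strand of the gene and 5′ to 3′, and capitals mark GAAANNGAA or its reverse complement, searched on both strands.
Isg15, chr4:156200819-156201068: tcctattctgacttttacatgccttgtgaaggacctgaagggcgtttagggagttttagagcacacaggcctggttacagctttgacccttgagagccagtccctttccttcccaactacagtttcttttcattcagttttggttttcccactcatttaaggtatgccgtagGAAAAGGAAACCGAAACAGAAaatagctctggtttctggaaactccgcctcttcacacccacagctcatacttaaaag
Ifit3b, chr19:34607707-34607956: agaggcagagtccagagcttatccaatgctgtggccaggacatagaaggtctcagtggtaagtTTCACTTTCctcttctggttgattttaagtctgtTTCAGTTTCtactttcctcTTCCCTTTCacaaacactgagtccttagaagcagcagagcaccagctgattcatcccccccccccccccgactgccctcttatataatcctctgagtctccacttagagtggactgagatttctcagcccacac
B2m, chr2:122147437-122147685: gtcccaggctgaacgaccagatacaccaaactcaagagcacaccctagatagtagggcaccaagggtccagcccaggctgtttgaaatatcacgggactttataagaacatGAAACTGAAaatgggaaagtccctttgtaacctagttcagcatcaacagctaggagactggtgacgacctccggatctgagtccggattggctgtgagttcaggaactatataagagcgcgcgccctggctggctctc

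Isg15 holds 3 copies that overlap each other, Ifit3b 3 copies on the opposite strand and B2m 1 copy. Of the 34 members that rose, 27 had a promoter in the RefSeq table (250 bases before to 50 after the start), and 15 of these (55.6%) held the letters, against 867 of 10453 promoters of tested genes (8.29%). Among all 32 tested list members with a promoter, whether they rose or not, 16 (50%) held them. H2-K1, H2-D1, Psmb8 and Tap1 were among those without a match in this window. A match is a description of the sequence and not a measured binding site.

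Mitotic genes moved the other way, by less. All 57 tested members of the mitosis and G2-M list had a log2 fold change below 0, 9 of them fell past the test beside 0.581% of all genes, and the list's median was -0.51. Day 0 lay below day -2 without overlap in 42 of 57 members, against 21.3% of all genes. Ccnf, the cyclin of an SCF ubiquitin ligase (ENSMUSG00000072082, chromosome 17, 24222198 to 24251484), stood at 1925, 1703 and 1312 in day -2 A, B and C and at 980, 953 and 666 at day 0 (log2 fold change -0.93, SE 0.17, adjusted p = 0.000727). Plk1, the kinase that drives entry into mitosis, stood at 1941, 1800 and 1151 and then at 959, 882 and 718 (-0.91, SE 0.20, adjusted p = 0.00525). Cdc25c, the phosphatase that activates Cdk1, stood at 727, 849 and 535 and then at 401, 371 and 378 (-0.85, SE 0.19, adjusted p = 0.00533). In all 3 genes day -2 C was the lowest of its day, nearest to day 0. Birc5 (survivin), the spindle proteins Hmmr, Kif2c, Kif20a and Kif4, and Cdca3 fell with log2 fold changes of -0.61 to -0.77. The number that fell was 32 without day -2 C, 30 without day -2 C and day 0 A, 0 without day -2 A and 0 without day 0 C, while the list's median lay between -0.76 and -0.44 over these settings. Exons of Plk1, Cdc25c, Kif20a and Kif4 overlap other genes on the opposite strand.

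Several usual marks of proliferation did not pass. Mki67, the source of the Ki-67 antigen, stood at 5120, 5876 and 4184 at day -2 and at 4396, 3550 and 3507 at day 0 (log2 fold change -0.40, SE 0.17, adjusted p = 0.142), with overlapping groups. The log2 fold change of Ccnb1, the mitotic cyclin, was -0.69 (adjusted p = 0.0114), that of Cdk1, its kinase, -0.51 (adjusted p = 0.0294) and that of Ccna2, the cyclin of S phase and G2, -0.55 (adjusted p = 0.03), each with groups that did not overlap. Mcm5, of the replicative helicase, and Ccne1, the cyclin of the G1 to S step, had log2 fold changes of -0.37 (adjusted p = 0.138) and -0.66 (adjusted p = 0.0874). Of 55 DNA replication genes tested, 1 fell (1.82%, beside 0.581% of all genes) and 48 had a log2 fold change below 0, with a median of -0.22. The call was lost without day -2 A, day -2 B, day 0 B or day 0 C and on the deposited scale. DESeq2 on the 6 libraries gave 7 falls, beside 798 among the 12903 genes it tested. The member that fell was Rrm2, the small subunit of the enzyme that makes deoxynucleotides, from 2406, 2562 and 1510 to 1102, 889 and 990 (-1.09, SE 0.23, adjusted p = 0.00365). Pcna, the sliding clamp of replication, stood at 3901, 4048 and 3730 and then at 3989, 3608 and 3790 (-0.04, SE 0.13, adjusted p = 0.902), and its sign flipped on the deposited scale, under quantile normalization and with DESeq2 size factors.

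No tested member of the list of cell cycle brakes, D cyclins and pocket proteins passed as a rise in the main fit. The D cyclin Ccnd1 and the inhibitor Cdkn1c, also on this list, were not tested. Of 35 tested brakes, D cyclins and pocket proteins 0 rose and 1 fell in limma (2.86% fell, beside 0.581% of all genes). An unadjusted p under 0.05 with a higher day 0 was found in 5 of the 35, beside 12.4% of all genes. In edgeR and in DESeq2 on all libraries 0 rose. On the 6 libraries alone limma called 1 rise and DESeq2 called 6, and the deposited scale gave 8. Over all genes these settings called 279, 978 and 1686 rises. The member that fell was Skp2, which marks the inhibitor p27 for destruction, from 1536, 1343 and 1411 to 1070, 1021 and 910 (log2 fold change -0.52, SE 0.12, adjusted p = 0.00626). This call was lost when any 1 of the 6 libraries was left out, on the deposited scale, under quantile normalization and with DESeq2 size factors. Cdkn1b, which encodes p27, stood at 1374, 1201 and 2183 and then at 1633, 2117 and 2018 (0.32, SE 0.18, adjusted p = 0.291), and Cdkn1a, which encodes p21, at 779, 944 and 1230 and then at 983, 1089 and 1209 (0.17, SE 0.24, adjusted p = 0.712). Cdkn2a, the locus of p16 and Arf, had a log2 fold change of 0.36 (SE 0.18, adjusted p = 0.221). Trp53, which encodes p53, had one of -0.28 (SE 0.14, adjusted p = 0.203), with the opposite sign on the deposited scale. RNA does not show whether cells had stopped dividing, so the interval is called the 2 days before the cocktail and not an arrest.

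**Figure D3:**
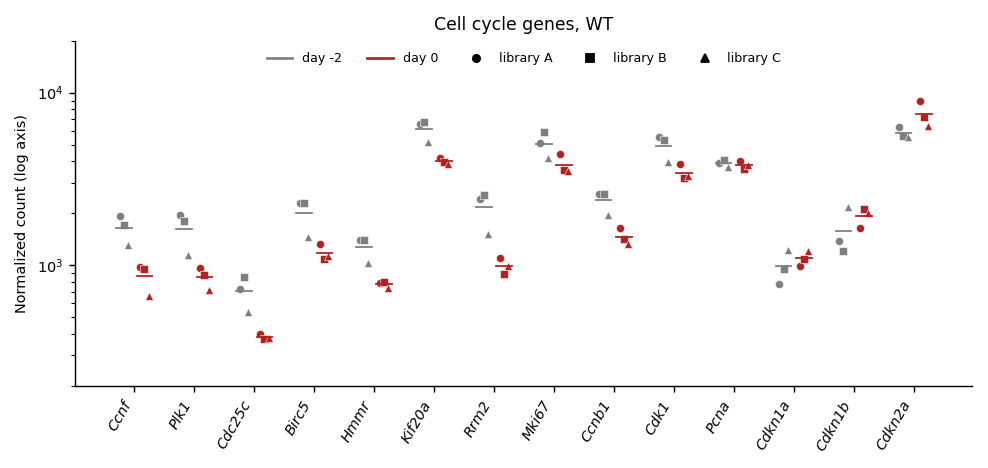
Normalized counts (log axis) of 14 cell cycle genes in WT, day -2 in grey and day 0 in red, with a symbol for each library and a line at the mean of 3. The 7 genes on the left passed the test and their days do not overlap, while Mki67, Pcna, Cdkn1a and Cdkn1b overlap.

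The promoters of 2 genes that fell are printed because mitotic promoters commonly hold the letters CCAAT, bound by NF-Y, and the cell cycle genes homology region (CHR, searched as TTTGAA and TTCGAA). Both are on the gene's strand, 5′ to 3′, on GRCm38.p6, before the start of the gene in GENCODE, with these letters or their reverse complement in capitals.
Ccnf, chr17:24251485-24251659: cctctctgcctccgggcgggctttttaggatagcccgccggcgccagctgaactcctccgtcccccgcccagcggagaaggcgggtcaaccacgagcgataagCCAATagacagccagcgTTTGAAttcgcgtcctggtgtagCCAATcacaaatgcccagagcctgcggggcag
Hmmr, chr11:40733438-40733687: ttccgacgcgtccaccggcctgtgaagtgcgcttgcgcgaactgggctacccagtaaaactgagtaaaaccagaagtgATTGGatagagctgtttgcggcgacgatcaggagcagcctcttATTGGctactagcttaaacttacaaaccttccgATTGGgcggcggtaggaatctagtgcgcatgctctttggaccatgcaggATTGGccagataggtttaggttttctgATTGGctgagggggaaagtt

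Hmmr holds 5 CCAAT boxes, all on the opposite strand. Of the 9 mitotic genes that fell, 7 had a promoter in the table, of which 5 held CCAAT and 6 a CHR sequence. Among all 48 tested list members with a promoter the shares were 79.2% and 79.2%, and among all promoters of tested genes 42.9% and 16%.

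Ribosome biogenesis genes lay lower at day 0 as a block, with no single member past the test. Of 45 tested members all 45 had a log2 fold change below 0, with a median of -0.58, and 44 lay lower without overlap, against 21.3% of all genes. In limma 33 fell with an unadjusted p under 0.05, beside 11.5% of all genes. Among the members edgeR called 0 and DESeq2 on all libraries called 2. Limma on the 6 libraries alone called 13, beside 206 falls among 14298 genes. DESeq2 on those 6 called 34, beside 798 falls among 12903 genes. Odc1, the first enzyme of polyamine synthesis, stood at 2694, 3050 and 2245 at day -2 and at 1314, 1222 and 1616 at day 0 (log2 fold change -0.94, SE 0.23, adjusted p = 0.0107). Npm1, nucleophosmin of the nucleolus, stood at 19108, 20537 and 18888 and then at 12522, 11883 and 13638 (-0.62, SE 0.19, adjusted p = 0.037). Dkc1, the pseudouridine synthase dyskerin, had a log2 fold change of -0.89 (SE 0.24, adjusted p = 0.0186). Myc, a factor that drives such genes, stood at 902, 1368 and 687 and then at 979, 715 and 1002 (-0.09, SE 0.33, adjusted p = 0.906), with overlapping groups and a sign that flipped on the deposited scale, without day -2 B and without day 0 B.

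Some basement membrane and matrix genes rose. Of 50 matrix glycoproteins and proteoglycans tested, 6 rose, beside 2.23% of all genes, with a median log2 fold change of 0.48, and 5 rose without day -2 C and day 0 A, 2 without day -2 A, day -2 B, day 0 B or day 0 C, and 3 without day 0 A. Lama4, a laminin chain of basement membranes (ENSMUSG00000019846, chromosome 10, 38965515 to 39110188), stood at 97.5, 41.7 and 91.3 at day -2 and at 1349, 1006 and 942 at day 0, a 14.9-fold rise (log2 fold change 3.90, SE 0.41, adjusted p = 8.83e-07). Day -2 C lay among A and B here. Lama2, another laminin chain, stood at 77.6, 56.3 and 172 and then at 652, 757 and 609 (2.87, SE 0.59, adjusted p = 0.00273). Eln, elastin, stood at 27.9, 22.9 and 103 and then at 312, 422 and 393 (3.17, SE 0.74, adjusted p = 0.00818), and Postn, periostin, at 2706, 2869 and 11374 and then at 15274, 19058 and 20118 (2.02, SE 0.42, adjusted p = 0.00338). For Postn, day -2 C lay far above A and B. Fbln1 and Nid2, which link the basement membrane, rose 2.62-fold and 2.77-fold. Dcn, the collagen-binding proteoglycan decorin, stood at 3278, 1928 and 3645 and then at 10739, 11991 and 12903 without passing (2.06, SE 0.57, adjusted p = 0.0245). Exons of Lama2, Eln and Nid2 overlap other genes on the opposite strand.

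The main fibrillar collagens were not among the rises. Of 32 collagen genes tested 1 rose (3.12%, beside 2.23% of all genes), and the list's median was 0.51. The 1 that rose was Col24a1, from 8.96, 5.22 and 18.6 to 91.9, 111 and 103. That call was lost when any 1 library other than day -2 C was left out. Col1a1 had a log2 fold change of -0.08 (SE 0.30, adjusted p = 0.903), a sign that flipped on the deposited scale, under quantile normalization and without day -2 C, and Col3a1 of 0.82 (SE 0.46, adjusted p = 0.279). Among 47 matrix proteases, inhibitors and crosslinkers 4 rose (8.51%, beside 2.23% of all genes). This count was 1 without day -2 A, 2 without day -2 B or any 1 day 0 library, and 7 without day -2 C. Mmp2, gelatinase A, stood at 1571, 987 and 1527 and then at 5671, 5436 and 5422 (2.05, SE 0.27, adjusted p = 2.57e-05), and Mmp13, a collagenase, at 10.9, 29.2 and 133 and then at 272, 436 and 528 (3.45, SE 0.62, adjusted p = 0.000638). Adamts9 and Mmp19 rose 2.39-fold and 1.65-fold.

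Complement and lysosomal genes rose with them. Of 15 complement and acute phase genes tested 6 rose (40%, beside 2.23% of all genes), or 7 without day -2 C and day 0 A, with a median log2 fold change of 1.20. C1s1, a protease that starts the classical pathway, stood at 483, 589 and 1948 and then at 4464, 5408 and 6035 (2.68, SE 0.46, adjusted p = 0.000531), and C3, the central component, at 116, 201 and 449 and then at 1257, 1324 and 1674 (2.68, SE 0.41, adjusted p = 0.000158). C1ra, C4b, the inhibitor Serping1 and the copper carrier Cp rose 4.13-fold, 10.7-fold, 7.12-fold and 3.81-fold. Of 46 lysosome and autophagy genes tested 9 rose, beside 2.23% of all genes, with a median of 0.62, and 32 were higher without overlap, against 17.9% of all genes. Hexa, a hexosaminidase, stood at 1002, 1089 and 2190 and then at 2856, 3622 and 3670 (1.33, SE 0.26, adjusted p = 0.00169), and Gaa, the acid glucosidase that degrades glycogen, at 4526, 4347 and 5834 and then at 10109, 11248 and 9872 (1.10, SE 0.21, adjusted p = 0.00109). The cathepsins Ctsf, Ctsa and Ctsl, the cholesterol exporter Npc2, the lipase Lipa, the galactosidase Gla and the membrane protein Lamp1 rose 1.58-fold to 4.97-fold. The lysosomal count was 0 without day -2 A, 0 without day -2 B, 20 without day -2 C and 15 without day -2 C and day 0 A, and 3 and 2 without day 0 B and day 0 C.

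**Figure D4:**
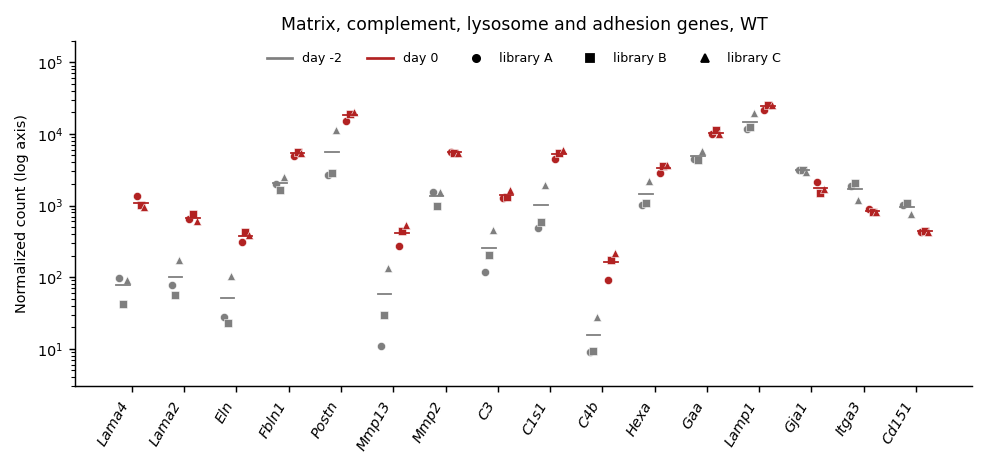
Normalized counts (log axis) of 16 matrix, complement, lysosome and adhesion genes in WT, day -2 in grey and day 0 in red, with a symbol for each library and a line at the mean of 3. All 16 genes separate the days without overlap, with Gja1, Itga3 and Cd151 lower at day 0 and the other 13 higher.

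Gja1, Itga3 and Cd151 were among the genes that fell. Gja1, connexin 43 of gap junctions, stood at 3179, 3174 and 2953 at day -2 and at 2114, 1515 and 1676 at day 0 (log2 fold change -0.82, SE 0.18, adjusted p = 0.00378). Itga3, the integrin chain that binds laminins, stood at 1857, 2050 and 1210 and then at 892, 810 and 823 (-0.98, SE 0.20, adjusted p = 0.00184). Cd151, a tetraspanin known as its partner in the membrane, stood at 1006, 1077 and 758 and then at 434, 444 and 432 (-1.10, SE 0.16, adjusted p = 8.89e-05). Of 37 adhesion genes tested 1 rose (Icam1, a leukocyte adhesion receptor) and 1 fell (Gja1), or 2.7% each way, beside 2.23% and 0.581% of all genes. The call of Gja1 was lost without day -2 A, day -2 B, day 0 B or day 0 C and on the deposited scale, and that of Icam1 without day -2 B, day -2 C, day 0 A or day 0 B. The other falls among the 10 largest were Hmgb3, a chromatin protein (-1.15), Fam185a (-1.14), Cenpx of the centromere (-1.05), the fatty acid ligase Acsl5 (-1.01), the ribosomal protein gene Rps2 (-1.01), Rcc1, which loads Ran with GTP (-1.01), and the splicing factor Rbmx (1.99-fold lower), beside Rrm2. Ribosomal protein genes have many processed copies, so reads of Rps2 are uncertain.

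The Hippo pathway links cell contact to YAP. Ccn1 and Ccn2, also on the list of YAP and TEAD targets, had no tested entry under the symbols searched. The list result leaves them out, and their levels are not known here. Of 20 YAP and TEAD target genes tested 1 rose (5%, beside 2.23% of all genes), with a median log2 fold change of 0.18. It was Nt5e, the ectoenzyme CD73 that makes adenosine, from 34.8, 33.4 and 102 to 215, 287 and 351 (log2 fold change 2.48, SE 0.41, adjusted p = 0.000263), which did not pass in the fit of the 6 libraries alone. Yap1 and its relative Wwtr1 had log2 fold changes of 0.11 (SE 0.09, adjusted p = 0.515) and 0.19 (SE 0.10, adjusted p = 0.225). Gas1, a gene known from growth-arrested fibroblasts, stood at 4650, 4198 and 4826 and then at 7144, 6358 and 6453 (0.55, SE 0.25, adjusted p = 0.183).

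Some genes of the BMP and WNT pathways rose. Of 28 BMP pathway genes tested 5 rose, beside 2.23% of all genes, or 2 without day -2 A, 1 without day -2 B and 3 without day 0 B or day 0 C. Bmp4, a ligand known to commit progenitors to the adipocyte lineage, stood at 498, 511 and 853 and then at 1544, 1761 and 1627 (log2 fold change 1.45, SE 0.28, adjusted p = 0.00138), and Bmp3, a member known to oppose other BMPs, at 129, 76.1 and 158 and then at 870, 666 and 640 (2.62, SE 0.50, adjusted p = 0.000975). The BMP binders Chrdl1 and Chrd and the ligand Bmp6 rose with log2 fold changes of 1.67, 1.56 and 2.02. Exons of Bmp4, Bmp6 and Chrd overlap other genes on the opposite strand, as do those of Axin2, Spry1, Icam1, Ebf2 and Gata3. Of 45 WNT pathway genes tested 6 rose (13.3%, beside 2.23% of all genes), or 2 without day -2 B or day 0 B, 3 without day 0 A and 3 in the fit of the 6 libraries alone. They included the receptor Fzd1 (2.20-fold) and the feedback inhibitors Axin2 (2.51-fold) and Nkd2 (4.09-fold). Spry1 and Spry2, feedback inhibitors of receptor tyrosine kinases, were the 2 of 35 immediate early and feedback genes that rose (5.71%, beside 2.23% of all genes). They went from 339, 302 and 363 to 878, 694 and 803 and from 270, 267 and 271 to 772, 514 and 451. The call of Spry2 was lost when any 1 of the 6 libraries was left out and under quantile normalization, while that of Spry1 was not. Fos had a log2 fold change of 1.32 (SE 0.45, adjusted p = 0.0619) and Egr1 of 1.21 (SE 0.47, adjusted p = 0.112), with day 0 A the highest library of each.

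Of 37 adipogenic regulators and brakes tested 3 rose (8.11%, beside 2.23% of all genes), and this count was 0 without day -2 A, day -2 B, day 0 B or day 0 C and 1 without day 0 A. Klf15, a factor known to favour adipocyte genes, stood at 4.98, 6.26 and 12.9 and then at 22.6, 49.1 and 51.7 (log2 fold change 2.23, SE 0.45, adjusted p = 0.00197). Ebf2, a factor known from brown fat, stood at 25.9, 29.2 and 26.7 and then at 93.7, 93.8 and 65.4 (1.58, SE 0.36, adjusted p = 0.00597). Gata3, a factor known to hold preadipocytes back, stood at 80.6, 99.1 and 160 and then at 217, 297 and 253 (log2 fold change 1.22, SE 0.29, adjusted p = 0.00868). Pparg, the master regulator, stood at 74.7, 89.7 and 150 and then at 74.6, 86.8 and 136 (-0.06, SE 0.29, adjusted p = 0.925), with overlapping groups and a sign that flipped on the deposited scale and without day -2 C, day 0 A or day 0 B. Zfp521, a zinc finger factor known to oppose adipogenesis, and Dlk1, the preadipocyte factor Pref-1, had log2 fold changes of 1.03 (adjusted p = 0.125) and 1.20 (adjusted p = 0.104). The C/EBP factors Cebpa, Cebpb and Cebpd had 1.34 (adjusted p = 0.0136), 0.63 (adjusted p = 0.0599) and 1.13 (adjusted p = 0.0469). Lpl, lipoprotein lipase, was the 1 of 5 tested adipocyte markers that rose (20%, beside 2.23% of all genes), from 118, 96 and 132 to 233, 252 and 388. The median log2 fold change of these 5 markers was 1.03, and 4 were higher without overlap, against 17.9% of all genes. The call of Lpl was lost without day -2 B or day 0 C and under quantile normalization, and Lpl stood at 6230 ± 865 (n = 3) at day +8. Fabp4, the fatty acid binding protein of adipocytes, stood at 53.8, 58.4 and 47.3 and then at 285, 113 and 88.2 (1.40, SE 0.35, adjusted p = 0.0129). Aldh1a1, a retinaldehyde dehydrogenase, rose from 1.99, 5.22 and 13.7 to 36.4, 126 and 152 and stood at 9953 ± 3750 (n = 3) at day +3. The sterol exporter Abca1 rose 3.66-fold while Mvk, of the mevalonate pathway, fell by 0.75 on the log2 scale. They were the 2 called among 29 cholesterol genes (3.45% each way, beside 2.23% and 0.581% of all genes). The call of Mvk was lost without any 1 library other than day -2 C, without day -2 C and day 0 A together, and on the deposited scale.

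Day 0 stood apart from the other WT days in the summed interferon list. Summed over the 39 genes, the interferon list stood at 22237, 21932 and 42498 normalized counts in day -2 A, B and C, at 59758, 135370 and 120360 at day 0, at 20464, 28741 and 22407 at day +3 and at 37596, 38867 and 53158 at day +8. A further WT set of day -2, libraries D to F, stood at 17718 to 18098. The 57 mitotic genes summed to 162080, 160810 and 120280 at day -2, 113080, 99124 and 93743 at day 0, 154800, 133050 and 166490 at day +3, and 99837, 108750 and 89842 at day +8. Isg15 stood at 200 ± 62.8 at day +3, and Plk1 at 1368 ± 310 (n = 3 each). Lama4 instead stood at 976 ± 702 at day +3 and 3518 ± 512 at day +8, and Mmp2 at 5925 ± 2922 and 10497 ± 757. No test was made across these later days.

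**Figure D5:**
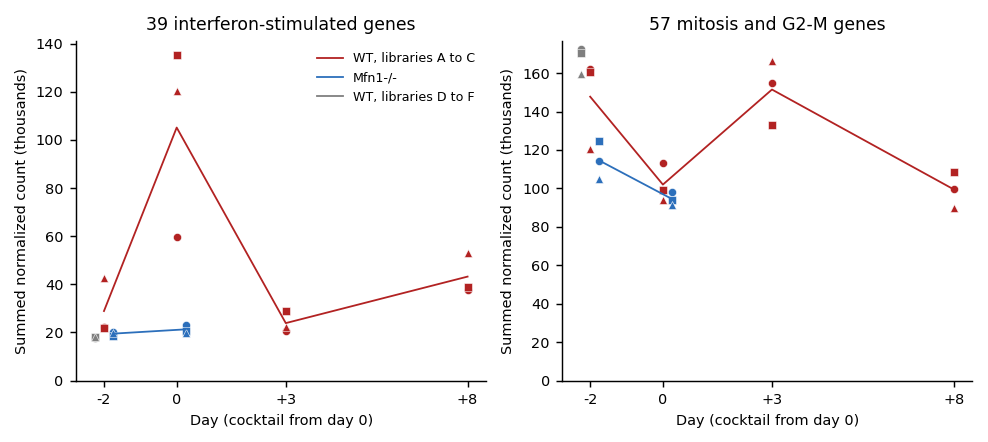
Summed normalized counts (in units of 1000, linear axis from 0) of the 39 interferon-stimulated genes (left) and the 57 mitosis and G2-M genes (right) by day, with a symbol for each library and lines through the group means. WT libraries A to C are red, Mfn1-/- blue and WT libraries D to F of day -2 grey, and day 0 of WT stands above each other group on the left.

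Mfn1-/- MEFs, taken over the same 2 days, were used to test which of these changes differed between the lines. In them 10 genes rose and 6 fell (0.112% of the genes). The difference of the responses, which shares no library between its sides, passed in 10 genes (0.0699%), and in all 10 the WT response was the higher. They were H2-K1, H2-D1, Psmb8, Tap1, Cmpk2, Dtx3l, Parp9, Lama4, Agrn and Epb41l4b. H2-K1 stood at 1033, 1300 and 1133 in Mfn1-/- MEFs at day -2 and at 1473, 1428 and 999 at day 0, so its groups overlapped there. Its log2 fold change was 0.16 in Mfn1-/- and 2.01 in WT, a difference of 1.86 (SE 0.27, adjusted p = 0.000588 in limma). Over the interferon list the median log2 fold change was 0.15 in Mfn1-/- and 2.43 in WT, the WT value was higher for all 39 members, and 5 passed the test of the difference. For mitosis the medians were -0.32 and -0.51, and for ribosome biogenesis -0.26 and -0.58. In limma 0 members of the mitosis and ribosome lists passed the test of the difference, which does not show that the lines acted alike. The count of the difference was 68 without day -2 C, 54 without day 0 A, 107 without both and 2 without any 1 of the other 4 WT libraries.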

How the data were processed

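RNA-seq libraries of MEFs were trimmed with cutadapt, aligned to GRCm38 with STAR, handled with SAMtools and counted per gene with featureCounts, per the submitters' processing notes. Versions and the strand setting are not given in the sources used here. The signal values deposited by the authors were gene counts divided by 1 factor per library, with factors set in separate blocks of libraries. Multiplying back gave whole reads for 100% of values (tolerance 0.01). The 16623 lines held 14761 genes after 19 duplicated symbols were merged, and 99.77% of the symbols matched 1 GENCODE gene. The authors' own comparisons were not used.

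Reads were rescaled by TMM over all 36 libraries (edgeR 4.0.16), kept at 10 or more in at least 3 libraries (14298 genes), and tested as log2(value + 1) with limma 3.58.1 (R 4.3.3) on 12 group means with trend and robust settings. Fold changes are on that scale, which understates those of low genes. Benjamini-Hochberg adjusted p-values under 0.01 passed. A library's depth limits the precision of its low counts. Samples were grouped by their GEO titles. Replicates of a day differed by more than sampling noise (reduced chi-square 6.688 to 37.53). As alternatives, edgeR on the recovered reads called 426 genes, and DESeq2 1.42.0, other scalings, filters, pseudocounts, a replicate block and leaving out libraries were run. Scripts were tested on simulated data.

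Members and lists were chosen with earlier results of these data known. Named genes were the 10 largest rises and falls among genes that passed, did not overlap between days, averaged 100 or more normalized counts on 1 of the days and had a named gene model. Up to 3 genes per list and direction, a set of anchor genes whatever their result, the 5 largest differences from Mfn1-/- in each direction and the cell type markers were also named. Cxcl10, Mx1, B2m, Irf1, Tapbp, Oas3, Isg20, Oasl1, Mmp19, Fbln1, Nid2, C3, C1ra, Cp, Ctsa, Npc2, Lipa, Gla, Lamp1, Ctsl, Birc5, Hmmr, Kif20a, Kif2c, Kif4, Cdca3, Odc1, Dkc1, Npm1, Ebf2, Klf15, Icam1, Bmp6 and Chrd were named after their values were seen. Promoters came from RefSeq, GRCm38.p6 build.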

Additional observations from a re-analysis of the deposited data

Results flagged for a closer look

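The response of WT MEFs over the 2 days differed from that of Mfn1-/- MEFs in 10 genes by limma's test of the difference itself, and each value here is the WT log2 fold change minus the Mfn1-/- one, with 3 libraries per line and day. Antigen presentation genes made up 4 of them. H2-D1 differed by 1.76 (SE 0.24, adjusted p = 0.000322), H2-K1 by 1.86 (SE 0.27, adjusted p = 0.000588), Psmb8 by 2.92 (SE 0.47, adjusted p = 0.00288) and Tap1 by 2.25 (SE 0.41, adjusted p = 0.00972). Their log2 fold changes in Mfn1-/- MEFs were 0.22, 0.16, -0.03 and 0.18.

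Cmpk2, a mitochondrial nucleotide kinase induced by interferon, differed by 5.25 (SE 0.87, adjusted p = 0.00409), with log2 fold changes of 3.36 in WT and -1.88 in Mfn1-/-. Dtx3l and Parp9, partners in a ubiquitin ligase complex whose exons overlap each other on opposite strands, differed by 2.30 and 2.03 (adjusted p = 0.00762 for both). Outside the interferon genes, Epb41l4b, a band 4.1 family protein, differed by 3.58 (SE 0.60, adjusted p = 0.00409), Lama4 by 3.31 (SE 0.58, adjusted p = 0.00759) and Agrn, the basement membrane proteoglycan agrin, by 1.66 (SE 0.29, adjusted p = 0.00759). Agrn had a log2 fold change of 1.66 in WT. Each genotype is 1 line, so line and genotype cannot be told apart.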

How the results depend on the processing

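The 402 genes called became 120 to 627 as each WT library was left out, 1694 on the deposited scale, 800 with DESeq2 and 1776 with DESeq2 on only the 6 libraries, and 364 to 512 elsewhere, apart from 279 without genes overlapped on the opposite strand. Limma on the 6 libraries gave 485 (57.5% rises), and DESeq2 on them 55.1% rises. The 10 differences from Mfn1-/- became 2 to 68 as libraries were left out, 107 without both day -2 C and day 0 A (chosen after seeing the data, as was the opposite strand setting), 17 with a pseudocount of 5, 4 with only the libraries compared, 6 without overlapped genes, 6 with edgeR, 59 with DESeq2 and 84 with DESeq2 on only those libraries. The 16 genes of Mfn1-/- became 25, 544 (deposited scale), 6, 10, 64 and 153 under pseudocount 5, that scale, only the libraries compared, no overlapped genes, DESeq2 and DESeq2 on only those libraries. Of the interferon list 5 passed in limma with only the 6 libraries and 24 with DESeq2 on the 6. Of the mitosis list 0 to 32 fell as libraries were left out, 30 without both, 1 on the deposited scale, 4 with only the 6 libraries, 5 without overlapped genes, 20 with DESeq2 and 32 with DESeq2 on the 6.

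Between libraries of the same letter, deviations from the day mean correlated at 0.363 for A, -0.091 for B and 0.344 for C. B of day -2 correlated best with A of day 0 (0.111). With 3 libraries a day these values cannot settle whether the letters mark pairs, and the main fit was unpaired. With the replicate block 419 genes were called, 42 differences from Mfn1-/- and 14 mitotic falls.

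No sign reversed among the 89 named genes that passed, and 12 kept their call under every one of the 20 alternatives that tested them. Among the others Col1a1 reversed to 0.22 (deposited scale), 0.10 (quantile), 0.0628 (without both) and, as libraries were left out, -0.19 to 0.026. Myc reversed to 0.21 (deposited scale) and, as libraries were left out, -0.32 to 0.18. Pcna reversed to 0.26 (deposited scale), 0.0578 (quantile), 7e-04 (DESeq2 size factors) and 0.0012 (DESeq2). Pparg reversed to 0.23 (deposited scale), 0.41 (without both) and, as libraries were left out, -0.31 to 0.23, and Trp53 to 0.0158 (deposited scale). The cause was not tested for these.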

Other observations

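Some genes of other lists rose in WT between day -2 and day 0 (limma, 3 libraries a day). Selenop, the selenium carrier of plasma, stood at 30.9, 20.9 and 52.1 normalized counts and then at 390.3, 359 and 349 (log2 fold change 3.46, SE 0.71, adjusted p = 0.00266). Its exons overlap those of Ccdc152 on the other strand. Mgst1, a membrane glutathione transferase, stood at 122, 61.5 and 56.2 and then at 231, 191 and 139 (1.27, SE 0.26, adjusted p = 0.00211). These were the 2 of 38 antioxidant genes tested that rose (5.26%, beside 2.23% of all genes). The count was 0 without day -2 B, day 0 A or day 0 B and 1 without any 1 of the other libraries. Notch3, a Notch receptor known from mural cells, stood at 479, 403 and 522 and then at 1268, 932 and 935 (1.15, SE 0.24, adjusted p = 0.00279). It was the 1 of 20 Notch pathway genes that rose (5%, beside 2.23% of all genes). Its call was lost without day -2 A, day -2 B or day 0 A.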
